A study of Mus musculus with 6 samples.

Results

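The genes described here encode the inhibitors of cyclin-dependent kinases (CDKs) and the retinoblastoma family in mouse. They are 2 Cip/Kip inhibitors (Cdkn1a and Cdkn1b), 4 INK4 inhibitors (Cdkn2a, Cdkn2b, Cdkn2c and Cdkn2d) and 3 pocket proteins (Rb1, Rbl1 and Rbl2). They were chosen by name from the families, and all 9 were found among the 56393 Ensembl genes of the deposited table. The cells were labelled primary mouse vascular smooth muscle cells and were kept in serum-containing medium, with nothing added. They were either wild type (WT, 3 libraries) or knocked out for Nono (KO, 3 libraries), a gene for an RNA- and DNA-binding protein of nuclear paraspeckles. The labels give no age, sex or strain, do not say how the gene was knocked out or whether the KO cells are 1 clone, and do not say whether replicates were separate cultures. The p-values therefore measure only the spread between these libraries, which may be technical.

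The pocket proteins hold E2F transcription factors in check and so restrain entry into S phase. D-type cyclins with CDK4 or CDK6, and then cyclin E with CDK2, phosphorylate them and release E2F. INK4 proteins bind CDK4 and CDK6 and keep D-type cyclins away, while Cip/Kip proteins bind whole cyclin-CDK complexes and block above all those of CDK2. Rb1 binds mainly the activating E2Fs. The products of Rbl1 (p107) and Rbl2 (p130) bind mainly the repressive E2F4 and E2F5, with p130 being the typical form of resting cells and p107 that of cycling cells. In the vessel wall, Cdkn1a and Cdkn1b are known as brakes on smooth muscle proliferation.

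Library totals lay between 56529170 and 61670083 counts, and Nono was at 502 to 523 CPM (counts scaled to the library total, with TMM factors) in WT and 51.1 to 55.97 CPM in KO. KO and WT differed over most of the transcriptome: 69.3% of the 18732 tested genes passed an adjusted p of 0.05 in the quasi-likelihood test of edgeR, 35.1% higher and 34.2% lower in KO, and in 75.5% the 3 values of the groups did not overlap. Every count below is to be read against these shares. Smooth muscle markers were low in WT, with a summed level of 73.4 to 87.4 CPM over 9 genes against 249.5 to 252 CPM in KO, where Myocd was at 0. Acta2 alone went from 16.4 ± 1.27 to 161 ± 2.40 CPM (SD, n = 3 each). Of the 9 genes, 5 were called higher and 3 lower in KO. Myh11, the defining myosin, did not exceed 0.734 CPM in any library. The 8 fibroblast markers together were at 875 to 1026 CPM in WT, with Lum and Thy1 at 0, and at 10670 to 11550 CPM in KO. Epithelial and mesothelial markers (7 genes, Epcam and Krt18 at 0 throughout) were at 77.0 to 84.7 CPM in WT and 8.25 to 11.3 CPM in KO. Leukocyte markers (7 genes, Ptprc and Adgre1 at 0 throughout) were at 74.8 to 85.7 CPM and 74.7 to 89.6 CPM. Among the 5 of them tested, 3 were called higher and 2 lower in KO. Endothelial markers (7 genes, Tie1 at 0 throughout) did not exceed 3.70 CPM. The 5 pericyte markers, with Abcc9 at 0 throughout, were at 124 to 170.5 CPM in WT and 122.5 to 143 CPM in KO. The 4 Y-linked genes together were at 149.9 to 163.3 CPM in KO and at most 0.0795 CPM in WT, so sex-linked expression separated the same libraries as genotype. The 5 proliferation markers Mki67, Top2a, Ccnb1, Cdk1 and Birc5 summed to 1451 to 1483 CPM in WT and 420 to 463 CPM in KO, and none was at 0. These differences move with all results below and their part in them was not tested. In bulk RNA, fewer cells of a kind and less RNA per cell cannot be told apart.

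All 9 genes passed the low-count filter. In KO, 3 were higher (Cdkn1a, Cdkn1b and Rbl2) and 5 lower (Cdkn2a, Cdkn2b, Cdkn2c, Rb1 and Rbl1), and Cdkn2d did not pass the test. The groups did not overlap in 8 of the 9, where they did not in 75.5% of all tested genes. Passing the test is thus common among them, as it is among all tested genes (69.3%), and the direction differed by family: both Cip/Kip genes rose, 3 of 4 INK4 genes fell, and the pocket protein genes went both ways. The median log2 fold change over the 9 was -0.54, and 0.03 over all tested genes. Cdkn1a and Rbl2 had absolute log2 fold changes larger than those of 85.7% of tested genes and Rbl1 than those of 77.1%, while the other 6 lay between the values of 23.5% and 54.2%.

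**Figure D1:**
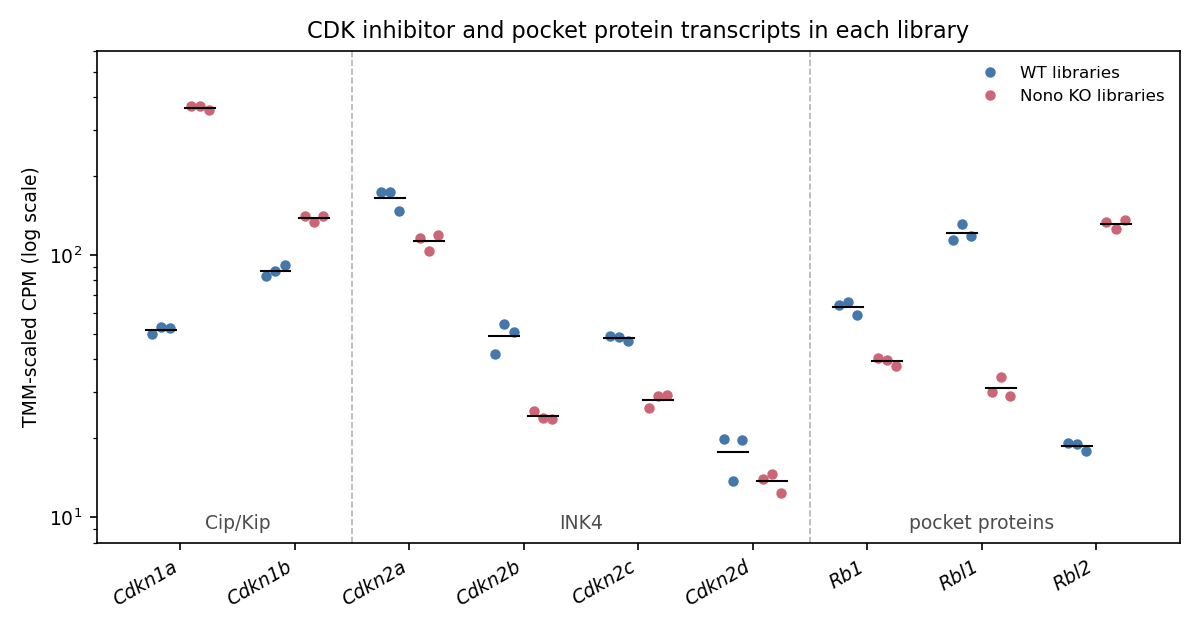
TMM-scaled CPM (log axis) of the 9 genes in each library, with WT in blue, KO in red and a line at each group mean. Groups are apart for every gene but Cdkn2d, in which 1 WT library lies among the KO libraries, and the widest gaps are those of Cdkn1a, Rbl1 and Rbl2.

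Cdkn1a, which encodes p21, the main CDK inhibitor induced by p53, rose 7.03-fold. It was at 49.7, 53.2 and 52.6 CPM in the WT libraries and at 368, 369 and 357 CPM in the KO libraries. All KO libraries lay far above all WT libraries, with little spread in either group (51.9 ± 1.86 and 364 ± 6.68 CPM, SD, n = 3 each). The log2 fold change was 2.81 ± 0.05 (SE, edgeR quasi-likelihood test, adjusted p = 2.08e-09). An unconfirmed transcript on the opposite strand, AC167363.2, overlaps Cdkn1a and averaged 1.46 CPM (WT) and 9.22 CPM (KO). Because the strand setting of the counting is not given in the sources used here, reads of the overlapping genes may not be separable.

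The RefSeq promoter table holds 2 start sites for Cdkn1a. Windows ran from 250 bases before to 50 bases after each start, and 8 of the 9 genes matched by symbol, with 11 windows. Rb1 had no window. The upstream Cdkn1a window carries a sequence with at most 1 mismatch to the p53 element, a motif of 20 bases that reads alike on both strands. It is shown because p53 is the best known activator of this gene, and 0.0883% of the 32851 windows of the same length hold such a match. The stretch below covers bases -100 to -1 before the start on the plus strand (chr17:29090879-29090978, GRCm38.p6, RefSeq), with the p53 element, at -51 to -32, in capitals. A match is a description of letters, and no binding was measured here.
Cdkn1a: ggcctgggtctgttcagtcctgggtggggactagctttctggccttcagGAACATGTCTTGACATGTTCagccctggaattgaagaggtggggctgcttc

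Genes around p53 were examined beside Cdkn1a. Trp53 itself, which encodes p53, fell from 207 ± 15.1 to 150.1 ± 3.90 CPM (SD, n = 3 each). Mdm2, both a target of p53 and the ligase that degrades it, rose from 90.1 ± 2.32 to 161 ± 6.08 CPM, a log2 fold change of 0.84 ± 0.05 (SE, edgeR adjusted p = 1.18e-06). Of 24 p53 target genes tested, Cdkn1a not among them and Mdm2 among them, 14 were higher and 8 lower in KO, with a median log2 fold change of 0.84, against 35.1% higher and 34.2% lower over all tested genes. The higher ones included Mdm2, Ccng1, Zmat3, Fas and Eda2r and the lower ones Sesn2, Gadd45a, Plk2 and Ddb2. Of 10 regulators of the p53 pathway, a list that holds Mdm2 as well, 2 were higher (Mdm2 and Mdm4) and 7 lower, among them Trp53 and the checkpoint kinases Atm, Atr, Chek1 and Chek2.

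Cdkn1b, which encodes p27, an inhibitor typical of resting cells, rose 1.59-fold. The WT libraries were at 82.8, 86.7 and 91.9 CPM and the KO libraries at 141, 134 and 141 CPM. The groups were separate, and the gap between them was several times the spread within them (log2 fold change 0.67 ± 0.06 SE, edgeR adjusted p = 9.29e-06). From the deposited FPKM, the authors' values per gene length, the ratio of KO to WT means was smaller, at 1.32, and for Cdkn1a it was 6.60. These FPKM do not follow the CPM by one factor per gene: FPKM divided by CPM was 0.299 in WT and 0.248 in KO for Cdkn1b, and how the authors scaled them is not given in the sources used here. Every level, sum and share in FPKM carries this limit. Within a library, Cdkn1a and Cdkn1b were about level in WT, with an FPKM ratio of Cdkn1a to Cdkn1b of 0.993 ± 0.04 (SD, n = 3). In KO the ratio was 4.96 ± 0.15 (SD, n = 3).

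The amount of p27 is set largely by degradation, and p21 shares part of that machinery. Skp2, the subunit of the SCF ubiquitin ligase that binds p27, fell from 95.4 ± 5.88 to 26.1 ± 3.98 CPM (3.66-fold), and its cofactor Cks1b from 78.1 ± 10.9 to 30.7 ± 1.38 CPM (2.54-fold). Of 12 tested genes of the ligases that act on these inhibitors, 4 were higher (Skp1a, Rbx1, Ddb1 and Cul4b) and 6 lower in KO, with Dtl, the subunit that directs the CUL4 ligase to p21, among the lower. Foxo3, a transcription factor known to activate Cdkn1b, rose from 86.6 ± 3.93 to 196.5 ± 12.1 CPM. Myc, a repressor of Cdkn1a, Cdkn1b and Cdkn2b transcription, fell from 212 ± 19.0 to 23.8 ± 2.32 CPM, a log2 fold change of -3.15 ± 0.10 (SE, edgeR adjusted p = 3.17e-08). Of 14 transcription factors that act on these genes, activators and repressors together, 5 were higher (Foxo3, Foxo4, Smad3, Smad4 and Klf6). The 7 lower were Foxo1, Myc, Zbtb17, Sp1, Sp3, Klf4 and Tfap4. While Cdkn1a and Cdkn1b rose, Cdkn2b fell 2.02-fold. The part of these factors in the changes of Cdkn1a, Cdkn1b and Cdkn2b was not tested. The remaining Cip/Kip gene, Cdkn1c (p57), was hardly detected, at 0.765 ± 0.14 CPM (WT) and 0.425 ± 0.08 CPM (KO), and its difference was not called (edgeR adjusted p = 0.0812).

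Of the INK4 genes, Cdkn2a was the most abundant in every library. The locus makes p16 (INK4A), a CDK4 and CDK6 inhibitor, and, from another first exon and reading frame, ARF, which stabilises p53 by holding Mdm2. Counts per gene add the transcripts of both, so neither product can be followed alone here. Cdkn2a was at 173.3, 173.4 and 146.5 CPM in WT and at 116, 103 and 119 CPM in KO. The lowest WT library, replicate 3, still lay above the highest KO library. The decrease was 1.46-fold (log2 fold change -0.54 ± 0.08 SE, edgeR adjusted p = 0.000453).

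The start that RefSeq lists farther upstream, that of the ARF first exon, has an E2F motif, and ARF is known as an E2F-responsive product. E2F letters were searched on both strands as TTTCGCGC, TTTGGCGC, TTTCCCGC and TTTGCCGC, and 2.26% of the 32851 windows hold at least 1 of them. The stretch covers bases -120 to -61 before that start on the minus strand (chr4:89294680-89294739, GRCm38.p6, RefSeq), with the motif, at -99 to -92, in capitals.
Cdkn2a: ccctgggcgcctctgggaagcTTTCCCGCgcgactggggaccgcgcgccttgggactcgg
The other Cdkn2a window, at the start of the INK4A first exon, holds none of these letters.

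Cdkn2b (p15), the neighbour of Cdkn2a on chromosome 4 and a known target of TGF-beta signalling, fell 2.02-fold. WT libraries were at 42.0, 54.6 and 50.7 CPM and KO libraries at 25.5, 23.97 and 23.6 CPM. WT replicate 1 was the lowest of its group and still well above all KO libraries (log2 fold change -1.01 ± 0.10 SE, edgeR adjusted p = 3.59e-05). Cdkn2c (p18) fell 1.72-fold, from 49.1, 48.7 and 46.8 CPM in WT to 26.0, 29.0 and 29.3 CPM in KO. Its groups were tight and separate (log2 fold change -0.78 ± 0.07 SE, edgeR adjusted p = 2.05e-05).

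Cdkn2d (p19, the INK4D product), the least abundant of the 4, was at 19.8, 13.8 and 19.8 CPM in WT and 14.0, 14.6 and 12.4 CPM in KO. WT replicate 2 lay within the KO range, so the groups overlapped. The log2 fold change of -0.38 ± 0.15 (SE) missed the threshold (edgeR adjusted p = 0.0572). It passed without WT replicate 2 (-0.53, adjusted p = 0.00384), with DESeq2 (-0.38, adjusted p = 0.0392), with scaling by total counts (-0.51, adjusted p = 0.0161) and from the FPKM (-0.49, adjusted p = 0.0166). Over all 15 alternatives its adjusted p lay between 0.00384 and 0.187, and the sign did not turn.

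Known regulators of the Cdkn2a locus, activators and repressors together, differed among themselves. Of 21 tested, 6 were higher and 11 lower, with a median log2 fold change of -0.25. Bmi1, the Polycomb subunit best known for silencing this locus, averaged 78.6 ± 4.32 CPM (WT) and 75.3 ± 3.13 CPM (KO) and was not called (edgeR adjusted p = 0.398). With scaling by total counts it was called lower (log2 fold change -0.19, edgeR adjusted p = 0.0265), as it was from the FPKM. Cbx7, another Polycomb repressor of the locus, fell 4.83-fold, from 52.0 ± 4.59 to 10.8 ± 0.91 CPM, and the histone methyltransferase Ezh2 2.32-fold, from 86.02 ± 8.24 to 37.1 ± 3.93 CPM. Tbx2 and Tbx3, T-box repressors of this locus, were both called higher. Of other genes on this list, Ets2 and Dmtf1 were called lower and Kdm6a and Kdm6b higher.

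The kinases and cyclins that the inhibitors act on did not move as a block. Cdk4 averaged 247 ± 14.1 CPM (WT) and 229 ± 16.4 CPM (KO) and was not called (edgeR adjusted p = 0.173), but was called lower with scaling by total counts (log2 fold change -0.24, edgeR adjusted p = 0.00998) and from the FPKM. Cdk6 fell 1.56-fold, from 97.4 ± 10.6 to 62.3 ± 5.00 CPM (edgeR adjusted p = 0.000313). Of the D-type cyclins, Ccnd1 was at 232 ± 36.0 and 242 ± 14.5 CPM, a difference whose sign turns with scaling by total counts, and Ccnd2 at 250.8 ± 9.80 and 243 ± 8.26 CPM. Neither passed the test, although Ccnd2 was called lower from the FPKM and when scaled by total counts. Ccnd3 spread widely, from 25.2 to 66.6 CPM in WT and from 39.9 to 131.5 CPM in KO, where replicates 1 and 2 were at 42.1 and 39.9 CPM.

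The cyclin E arm was lower. Ccne1 fell 3.02-fold, from 34.2 ± 1.65 to 11.3 ± 0.94 CPM, and Ccne2 9.56-fold, from 66.4 ± 7.43 to 6.94 ± 0.44 CPM (edgeR adjusted p = 4.14e-08). Their kinase Cdk2 was at 57.9, 110 and 123 CPM in WT and at 52.3, 66.7 and 57.3 CPM in KO. WT replicate 1 lay among the KO libraries, and Cdk2 did not pass (log2 fold change -0.73 ± 0.30 SE, edgeR adjusted p = 0.0758). It passed once that library was left out (-0.99, edgeR adjusted p = 0.000175), and it passed in 6 of 15 alternatives. Of 14 tested G1 cyclins and CDKs, 1 was higher (Cdk7) and 8 lower. Of 9 other genes that restrain CDKs, 2 were higher and 5 lower. Among these, Cdkn3, a phosphatase that acts on CDKs, averaged 3.88 ± 0.85 CPM (WT) and 5.29 ± 0.50 CPM (KO) and passed only without WT replicate 2 (log2 fold change 0.61, edgeR adjusted p = 0.0267).

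The pocket protein genes parted. Rb1, the retinoblastoma gene, fell 1.61-fold: it was at 64.6, 65.9 and 58.7 CPM in WT and at 40.5, 39.6 and 37.6 CPM in KO. The 2 groups were well apart (log2 fold change -0.68 ± 0.07 SE, edgeR adjusted p = 3.11e-05). On the opposite strand Rb1 overlaps Rcbtb2, which went the other way, from 9.76 to 30.3 CPM, and Lpar6, so that reads counted on the wrong gene could touch the size of the difference. That was not tested.

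Rbl1 fell 3.90-fold. Its 3 WT libraries were at 114, 131 and 118 CPM and its KO libraries at 29.96, 34.3 and 28.96 CPM. Every WT library was more than 3 times any KO library (log2 fold change -1.96 ± 0.09 SE, edgeR adjusted p = 1.89e-07). Rbl2 rose 7.03-fold: WT libraries were at 19.2, 19.0 and 17.9 CPM and KO libraries at 134, 126 and 135 CPM. It had the largest fitted difference of the 9 genes, just beyond that of Cdkn1a (log2 fold change 2.81 ± 0.06 SE, edgeR adjusted p = 6e-09). From the deposited FPKM the ratio of KO to WT means was 5.69. Aktip, which overlaps Rbl2 on the opposite strand, averaged 24.8 CPM (WT) and 37.5 CPM (KO).

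The starts of these relatives are shown side by side because Rbl1 is a textbook E2F target. The pair was picked after its transcripts were seen to move in opposite directions. Whether E2F has a part in either change was not tested. Each stretch covers bases -80 to -1 before the RefSeq start, for Rbl1 on the minus strand (chr2:157204535-157204614) and for Rbl2 on the plus strand (chr8:91069977-91070056), both GRCm38.p6. Capitals mark the E2F motif TTTCGCGC, at -18 to -11 in Rbl1.
Rbl1: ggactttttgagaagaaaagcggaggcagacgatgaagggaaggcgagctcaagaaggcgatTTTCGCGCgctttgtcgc
Rbl2: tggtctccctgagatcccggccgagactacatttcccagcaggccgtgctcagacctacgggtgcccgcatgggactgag
None of the 4 E2F spellings is in the whole Rbl2 window. A CHR motif, TTTGAA on either strand, is at -201 to -196 of Rbl2 and at -161 to -156 of Cdkn2b, and 17.9% of all windows hold one. The windows of Cdkn1a, Cdkn1b, Cdkn2b, Cdkn2c and Cdkn2d hold none of the E2F spellings either. Of these genes, Cdkn1a and Cdkn1b were higher in KO, Cdkn2b and Cdkn2c were lower and Cdkn2d was not called. GC boxes, GGGCGG on either strand, are in at least 1 window of each of the 8 matched genes. The upstream Cdkn1a window and 1 of the Cdkn2c windows hold none, and the share over all windows, counted per window, is 35.7%. The forkhead letters GTAAACA are in none of the 11 windows and in 3.65% of all.

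Per length, the make-up of the pocket protein sum differed between the groups. Rb1, Rbl1 and Rbl2 added up to 42.05 ± 2.81 FPKM in WT and 40.4 ± 1.39 FPKM in KO (SD, n = 3 each), with overlapping values. The sum depends on the scale, as FPKM divided by CPM was 0.242 in WT and 0.196 in KO for Rbl2. With CPM multiplied by each gene's WT ratio of FPKM to CPM, a scale chosen after seeing the data, the sum was 40.4 to 44.7 in the WT libraries and 45.75 to 46.97 in the KO libraries, without overlap. In FPKM, Rbl1 held 57.3 ± 1.39% of this sum in WT and 14.7 ± 1.05% in KO. Rbl2 held 10.8 ± 0.49% in WT and 64.0 ± 1.69% in KO. The ratio of Rbl2 to Rbl1 was 0.2005, 0.177 and 0.188 in the WT libraries and 4.42, 3.96 and 4.68 in the KO libraries, so that the more abundant of the pair was Rbl1 in each WT library and Rbl2 in each KO library. Rb1 held 31.9 ± 1.19% in WT and 21.3 ± 1.54% in KO. On the other scale the KO shares were 13.3% for Rbl1, 68.7% for Rbl2 and 18.0% for Rb1.

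**Figure D2:**
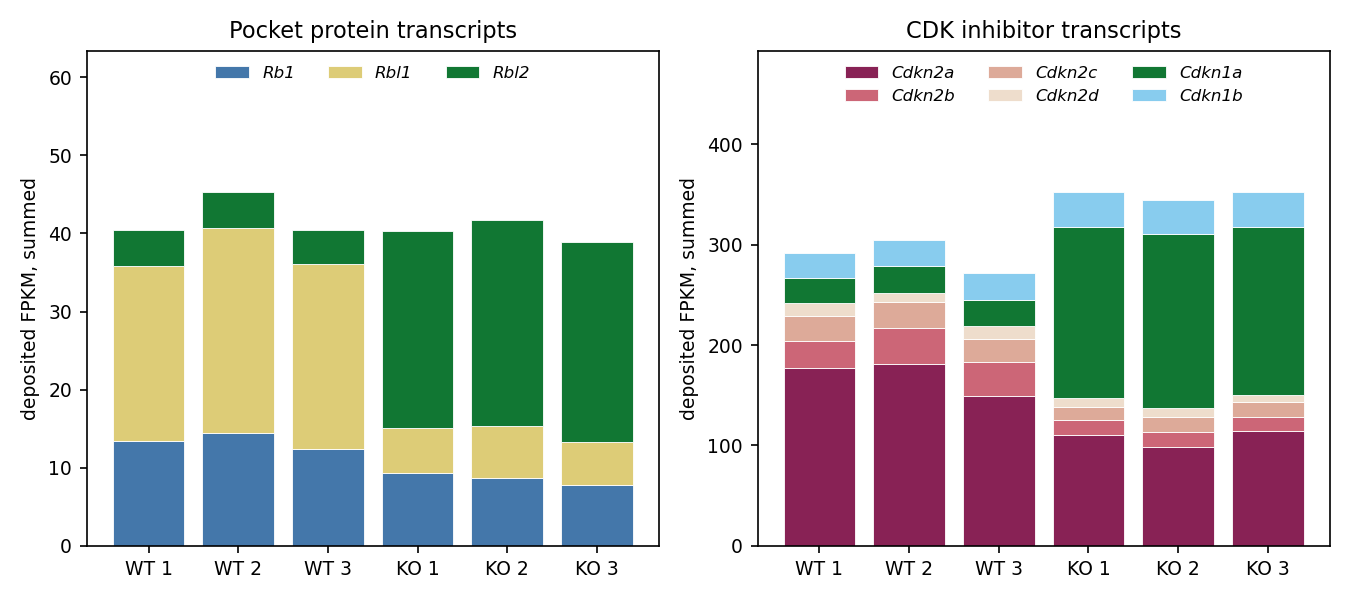
Deposited FPKM of the pocket protein genes (left) and the CDK inhibitor genes (right), stacked by gene in each of the 6 libraries, on linear axes from 0. The pocket protein bars are of similar height with Rbl1 largest in WT and Rbl2 in KO, and among the inhibitors Cdkn2a is largest in WT and Cdkn1a in KO.

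The balance of the inhibitors also differed on the same scale. The 2 Cip/Kip genes together went from 51.9 ± 1.97 to 205 ± 2.75 FPKM, while the 4 INK4 genes together went from 238 ± 16.9 to 145 ± 7.05 FPKM (means ± SD, n = 3 each, given as a description). The Cip/Kip sum was 0.219 ± 0.02 of the INK4 sum in WT and 1.42 ± 0.09 of it in KO. Of the INK4 sum, Cdkn2b held 13.6 ± 2.04% in WT and 10.15 ± 0.61% in KO, without overlap. Cdkn2a held 71.0 ± 2.51% in WT and 74.3 ± 1.94% in KO, Cdkn2c 10.5 ± 0.38% and 9.92 ± 1.01%, and Cdkn2d 4.87 ± 1.09% and 5.61 ± 0.74%, with overlapping values. The INK4 sum relative to the sum of Cdk4 and Cdk6 was 1.17 to 1.31 in the WT libraries and 0.830 to 1.02 in the KO libraries. Cdkn2a, the largest part of the INK4 sum, adds the transcripts of p16 and of ARF. The INK4 sum, its shares and both ratios therefore do not measure transcripts of CDK4 and CDK6 inhibitors alone.

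The order of levels per length shows the same change. In WT, Cdkn2a stood first at 169 ± 17.1 FPKM, followed by Cdkn2b at 32.3 ± 4.60 FPKM. Cdkn1b, Cdkn1a, Cdkn2c and Rbl1, between 24.1 and 26.0 FPKM on average, came next, and neighbours among these genes overlapped. Cdkn1b lay below Cdkn2b, and Rbl1 above Rb1, without overlap. Rb1 (13.4 ± 0.98 FPKM) and Cdkn2d (11.5 ± 1.96 FPKM) overlapped too, and Rbl2 was last at 4.53 ± 0.10 FPKM. In KO, Cdkn1a stood first at 170.5 ± 3.13 FPKM, then Cdkn2a at 108 ± 7.99 FPKM, Cdkn1b at 34.4 ± 0.47 FPKM and Rbl2 at 25.8 ± 0.54 FPKM, with no overlap between neighbours down to Rbl2 and the gene after it. Cdkn2b and Cdkn2c overlapped at 14.7 ± 0.54 and 14.3 ± 1.04 FPKM, as did Rb1 and Cdkn2d at 8.59 ± 0.75 and 8.08 ± 0.70 FPKM, and Rbl1 was last at 5.96 ± 0.62 FPKM.

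Downstream of the pocket proteins, E2F genes and their targets were lower in KO. Of 10 tested E2F and DP genes none was higher and 8 were lower, with a median log2 fold change of -1.25. The activator E2f1 fell from 113.5 ± 8.25 to 40.1 ± 2.48 CPM (2.83-fold), and the repressor E2f4, the main partner of p107 and p130, from 97.8 ± 3.22 to 48.6 ± 1.60 CPM (2.01-fold). Tfdp1, the dimer partner of E2Fs, fell from 331 ± 52.8 to 103 ± 9.99 CPM. All 20 tested E2F target genes were lower, where 34.2% of all tested genes were, with a median log2 fold change of -2.55. The target list holds E2f1, which is also counted among the E2F and DP genes. It also holds Ccne1, Ccne2 and Cdc25a, counted among the G1 cyclins and CDKs, so these counts are not separate. Rbl1 itself, an E2F target that is not on the target list, was lower by 1.96 on the log2 scale.

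The MuvB complex binds p130 or p107 with E2F4 to form the DREAM repressor in resting cells, and joins Mybl2 and Foxm1 as an activator in dividing cells. Of 7 genes of the complex and its partners, Lin37 was higher and 6 were lower. The core subunit Lin9 fell 5.76-fold, from 53.4 ± 1.25 to 9.26 ± 0.43 CPM, and Mybl2 8.97-fold, from 121 ± 8.90 to 13.5 ± 2.28 CPM (edgeR adjusted p = 1.8e-07). The call of Lin37 was lost with scaling by total counts. Of 13 corepressors that pocket proteins recruit, 5 were higher and 4 lower, near the shares over all tested genes. Kdm5a, a histone demethylase first found as a protein that binds Rb, was at 151 ± 4.70 and 158 ± 5.81 CPM and did not pass (edgeR adjusted p = 0.287), and its sign turns with scaling by total counts.

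**Figure D3:**
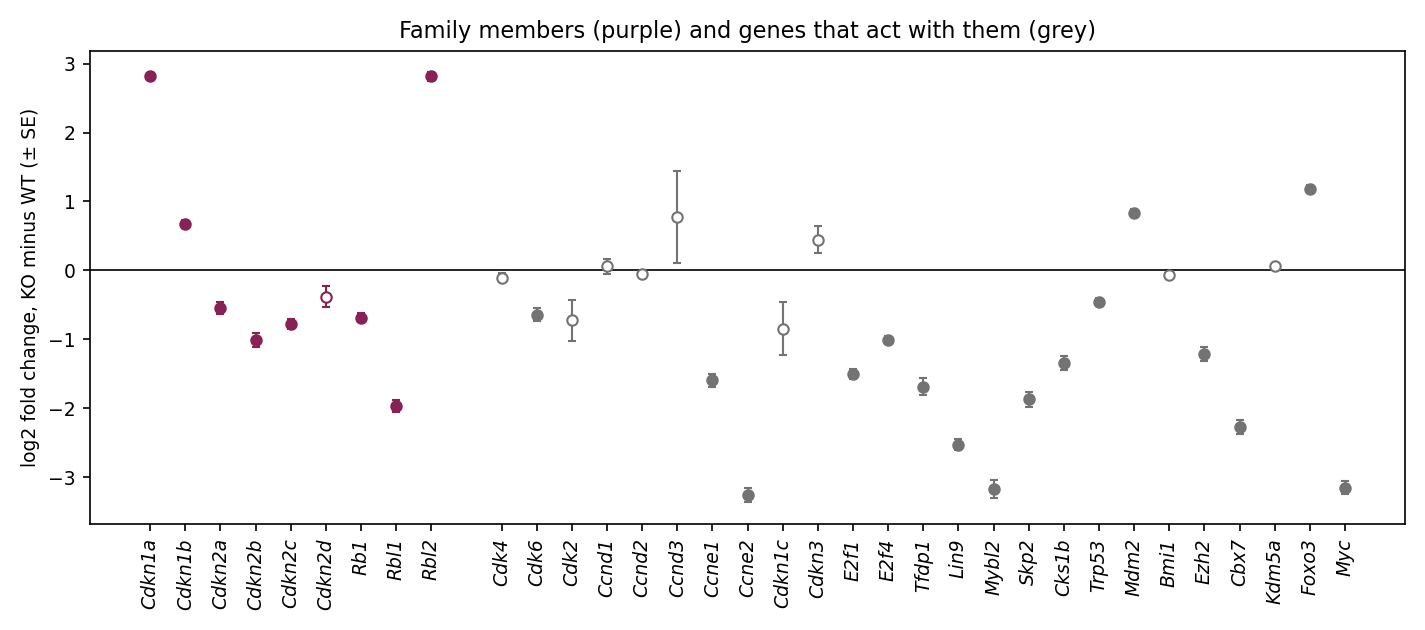
Log2 fold change, KO minus WT, with the SE of the edgeR fit, for the 9 family genes (purple) and 25 genes that act with them (grey), where filled points passed an adjusted p of 0.05 and open points did not. Cdkn1a and Rbl2 are the highest at 2.81, and Ccne2 at -3.26, Mybl2 and Myc are the lowest.

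Genes often read together with CDK inhibitors as signs of senescence include some known to be induced and some, Lmnb1 and Hmgb2, known to be lost in senescent cells. Of 9 tested, 6 were higher (Glb1, Cxcl1, Ccl2, Mmp3, Igfbp3 and Igfbp7) and 2 lower (Lmnb1 and Hmgb2), with a median log2 fold change of 1.296. Il6 was not called, and Il1a and Igfbp5 were not tested. Over all tested genes, 35.1% were higher and 34.2% lower. Cdkn2a, the inhibitor most used as such a sign, was among the lower genes of the series and Cdkn1a among the higher ones. Over all pathway lists, 158 genes were tested, of which 45 were higher and 88 lower.

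**Figure D4:**
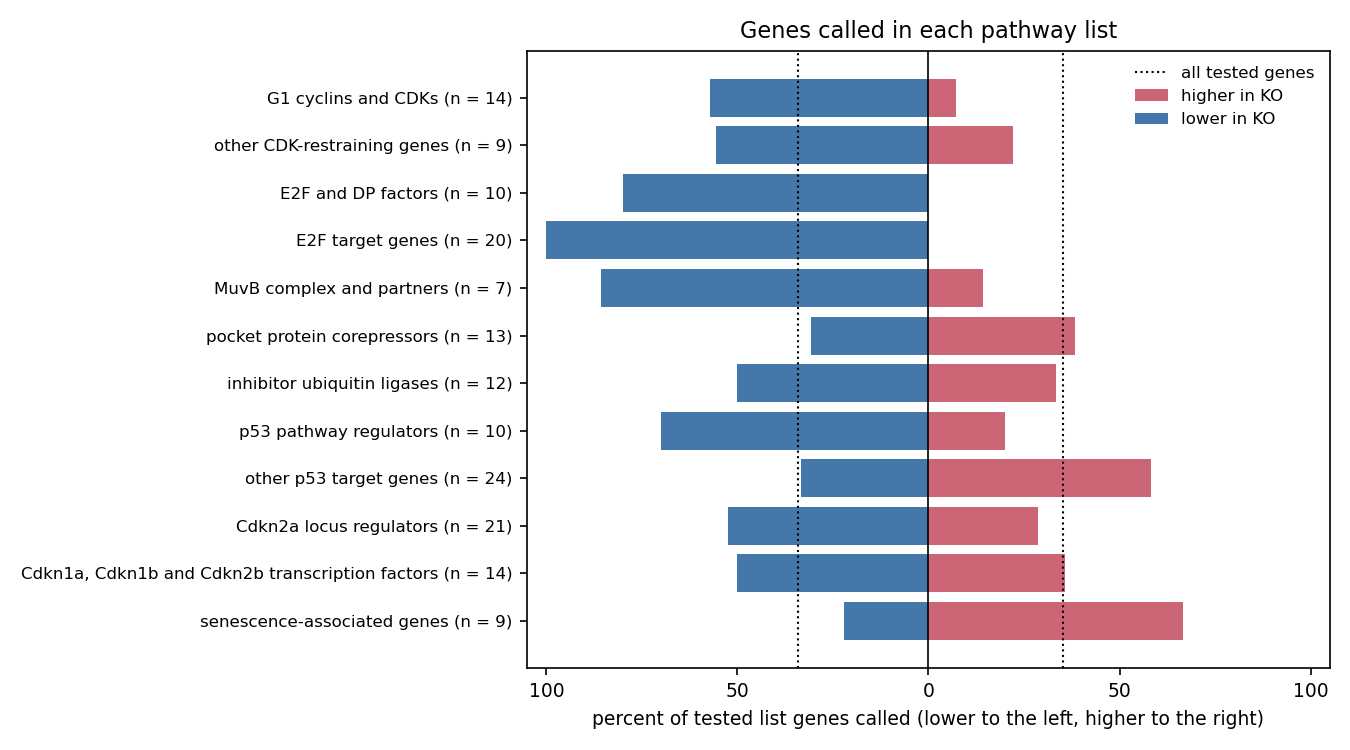
Percent of the tested genes of each pathway list that were called lower (blue, to the left) or higher (red, to the right) in KO, with dotted lines at the shares over all tested genes, 34.2% and 35.1%. E2F targets, the MuvB complex, and E2F and DP factors lie farthest to the left, and senescence-associated genes and p53 targets reach farthest to the right.

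The genes whose pattern was closest to that of Rbl2 were sought among 11366 tested genes with a mean of at least 5 CPM. Rbl2 was taken because its fitted difference in the main test was the largest of the members, by a margin over Cdkn1a far below the SE. Likeness was the Euclidean distance of log2 CPM, centred on each gene's mean over the 6 libraries. Ifitm2 was nearest (distance 0.09, from 102.5 to 705 CPM), then Car5b (distance 0.15, from 6.71 to 48.9 CPM) and Zkscan3 (distance 0.17, from 42.6 to 288 CPM). With only 2 groups, any gene with a like fold change and little spread comes close.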

How the data were processed

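RNA sequencing of 6 libraries, 3 WT and 3 KO by their titles, was used. Per the file headers, the authors deposited, for each Ensembl gene and library, an unnormalized count and an FPKM value. Per the submitters' processing notes, the tools were HISAT2, CASAVA 1.8, edgeR and SAMtools 1.3.1, and the build GRCm39. The counter, its strand setting, the annotation release and the FPKM scaling are not stated. FPKM, normalized by the authors, do not follow the counts by one factor per gene and served to compare levels between genes and in an alternative test. Of 56393 Ensembl IDs, 98.23% were matched to a symbol in GENCODE M21, which is of GRCm38, so no gene coordinates are given. Promoter windows are RefSeq's, of GRCm38.p6. Totals of 56529170 to 61670083 counts leave the spread between libraries, not counting error, as the main limit for genes at these levels. Libraries of 1 group were not copies of each other (chi-square over its degrees of freedom 22.6 to 34.8).

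The counts were filtered with filterByExpr (18732 genes kept), scaled with TMM and compared in edgeR 4.0.16 (R 4.3.3) by its robust quasi-likelihood test, KO against WT without covariates, with Benjamini-Hochberg adjustment over all tested genes at 0.05. An SE is the absolute log2 fold change divided by the square root of F. Alternatives were DESeq2 1.42.0, limma-voom (limma 3.58.1), scaling by total counts, other filters and thresholds, a fit without robust, limma on log2(FPKM + 0.1), a replicate block and leaving out each library. Named were the 9 genes and a fixed roster of genes that act with them, whatever their values, the 3 nearest genes by likeness, overlapping genes, and examples of list members, chosen after their values were seen. The genes and lists were chosen with earlier results of these data known, so their counts are descriptions. The result of 1 further list gene is not reported here. No set test was made.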

Additional observations from a re-analysis of the deposited data

How the results depend on the processing

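Over 15 alternatives, 8 of the 9 genes (all but Cdkn2d) kept their direction and their call. Genes called numbered 6578 higher and 6402 lower, and 5546 to 6815 and 5480 to 7165 over the alternatives. Of the 9 genes, 3 were called higher in each setting and 5 or 6 lower. Scaling by total counts moved the median log2 fold change of all tested genes from 0.03 to -0.10, and the log2 fold changes of the 9 genes shift with it. With the replicate number as a block, 6214 genes were higher and 6019 lower, and 3 and 5 of the 9. Cdk2 was then called lower (-0.66, edgeR adjusted p = 0.0347), and no other gene of the 9 or of the fixed roster changed its call. Deviations of same-numbered libraries correlated across genes at -0.18, -0.06 and -0.08, and those of differently numbered libraries at -0.02 to 0.10. Deviations centred on 3 libraries constrain each other, so these values cannot tell whether the numbers pair the libraries.

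Signs turned only in genes that did not pass the test. Ccnd1 (0.06) was at -0.069 when scaled by totals and -0.057 from the FPKM, and between -0.063 (without WT replicate 2) and 0.145 when libraries were left out. Kdm5a (0.06) was at -0.068 when scaled by totals and -0.053 from the FPKM, and Ccnd3 (0.77) between -0.02 (without KO replicate 3) and 1.289 (without WT replicate 2) when libraries were left out. The cause was not tested. CPM multiplied by the WT ratio of FPKM to CPM was a scale chosen after seeing the data. On it, the pocket protein sum in KO went from 40.4 to 46.4 and no longer overlapped WT. The sum of Cdk4 and Cdk6 in KO went from 159 to 176 and then overlapped WT. The KO ratio of Cdkn1a to Cdkn1b went from 4.96 to 4.39 and that of Rbl2 to Rbl1 from 4.355 to 5.196. In KO the Cip/Kip sum went from 205 to 223 and the INK4 sum from 145 to 155. These ratios, the Cip/Kip sum and the INK4 sum did not overlap WT on either scale. Of list counts, higher ligase genes went from 4 to 2 both from the FPKM and when scaled by totals, higher regulators of the Cdkn2a locus from 6 to 3 with scaling by total counts and at an adjusted p of 0.01, higher MuvB genes from 1 to 0 in the same 2 settings, and other CDK-restraining genes from 2 to 1 higher with at least 1 CPM in 3 libraries.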
